A study of Mus musculus with 9 samples.

Results

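The segment of mouse chromosome 8 from 68 to 89 Mb (GRCm38, chr8:68000000-89000000) held 846 of the 76253 chromatin regions found in 9 ATAC-seq peak lists, and 21.3% of the 3970 regions of chromosome 8. ATAC-seq maps open chromatin by letting the Tn5 transposase insert adapters into accessible DNA. A region is a run of peaks from any of the lists that overlap by at least 1 bp, and it belongs to the segment when its midpoint lies between the borders. The segment was chosen by measured values: the presence and rank of peaks in the Bcat_KO and HOXA9_KO libraries, since regions that differed between them gathered in it. Everything said about those 2 groups is therefore a description without a test.

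The cells were LSK cells, the lineage-negative, Sca-1-positive, Kit-positive fraction of blood-forming tissue that holds stem cells and early progenitors. There were 2 libraries each of WT, Bcat_KO (β-catenin), HOXA9_KO and PRMT1_KO cells, and 1 of dKO cells (β-catenin and Hoxa9). Sample titles mark the mutants as KO, while their genotype tags read knockdown. The series text names transplanted Prmt1KO mice alone as the source, and no label says how the alleles were made, which age or strain the mice had, or whether paired libraries stem from different animals. All p-values thus measure the spread between these samples. Every library was made from 50000 cells with 30 min of tagmentation at 37 °C, 10 cycles of amplification and fragments of 170 to 800 bp.

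The lists held 28325 to 45460 peaks in the 8 paired libraries and 10639 in the dKO library. The local background recovered from fold and p gave 6.29 to 11.2 reads per kb in the 8 libraries and 2.41 in the dKO library, with both WT libraries the shallowest of the 8. A missing peak can therefore be a region that was not detectable at that depth. Starts of Kit, Cd34 and Flt3, genes active in early progenitors, had a peak in 8 of 8 libraries, and that of Gata2 in 7. Starts of Cd3e, Cd8a and Ly6g, markers of mature T cells and granulocytes, had a peak in 0, and that of Itgam in 3 of the 8. The starts of Ctnnb1 and Prmt1 had a peak in 8 of 8 libraries and that of Hoxa9 in 3. These starts do not check the labels, because the deleted parts are not given.

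Open regions at gene starts are promoters, where transcription begins, and many are open in all cell types. Open regions inside genes and between them are often enhancers, which bind cell-type factors and open and close as cells change state. β-catenin is the co-activator of the Wnt pathway and acts through TCF and LEF factors, HOXA9 is a homeobox factor of stem and progenitor cells that binds DNA with PBX and MEIS partners, and PRMT1 is an arginine methyltransferase that marks histones and other proteins.

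Sequences of 5 promoters show what kind of DNA lies under the members at gene starts that differed between groups, next to 1 that was open in every list. They were chosen after their values were seen. All come from the RefSeq promoter table of GRCm38.p6, run 5′ to 3′ on the strand of the gene, and span 250 bases before to 50 after the start. Capitals mark matches, on either strand, to the GC box GGGCGG, the ETS core CCGGAAG, the GATA motif AGATAA, the TCF/LEF core CTTTGA, the HOX/PBX letters TGATTTA, or the CCAAT box CCAAT. Mri1 (chr8:84257275-84257574, minus strand) lay in the member that ranked higher in WT than in PRMT1_KO. Mylk3 (chr8:85380992-85381291, minus strand) lay in a weaker member that leaned the same way. Gm31223 (chr8:80948706-80949005, plus strand) lay in a member higher in Bcat_KO than in HOXA9_KO, and Syce2 (chr8:84871861-84872160, plus strand) in a member higher in HOXA9_KO. Slc35e1 (chr8:72492565-72492864, minus strand) lay in a member open in all 9 lists, while a second member within the same gene differed.
Mri1: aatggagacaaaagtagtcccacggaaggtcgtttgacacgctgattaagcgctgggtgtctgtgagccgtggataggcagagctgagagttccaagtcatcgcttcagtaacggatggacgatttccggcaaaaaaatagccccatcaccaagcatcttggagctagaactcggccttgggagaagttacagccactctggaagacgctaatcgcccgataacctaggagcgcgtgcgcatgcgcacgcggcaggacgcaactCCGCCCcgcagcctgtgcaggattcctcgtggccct
Mylk3: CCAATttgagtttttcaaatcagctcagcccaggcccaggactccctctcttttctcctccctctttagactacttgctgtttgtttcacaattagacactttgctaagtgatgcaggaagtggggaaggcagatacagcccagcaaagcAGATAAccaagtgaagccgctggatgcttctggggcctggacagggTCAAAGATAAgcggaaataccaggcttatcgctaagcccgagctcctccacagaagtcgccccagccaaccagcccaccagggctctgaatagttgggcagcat
Gm31223: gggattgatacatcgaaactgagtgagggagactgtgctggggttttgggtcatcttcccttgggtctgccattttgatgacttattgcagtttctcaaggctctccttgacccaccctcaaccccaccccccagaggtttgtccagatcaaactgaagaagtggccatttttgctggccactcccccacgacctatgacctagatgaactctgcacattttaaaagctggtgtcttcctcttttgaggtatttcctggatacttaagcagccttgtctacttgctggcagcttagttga
Syce2: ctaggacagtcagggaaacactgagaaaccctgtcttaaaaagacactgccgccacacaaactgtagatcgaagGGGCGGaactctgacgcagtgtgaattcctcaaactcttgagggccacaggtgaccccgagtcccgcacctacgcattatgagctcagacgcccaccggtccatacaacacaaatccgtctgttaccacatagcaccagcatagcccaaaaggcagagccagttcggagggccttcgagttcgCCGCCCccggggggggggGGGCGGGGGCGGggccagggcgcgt
Slc35e1: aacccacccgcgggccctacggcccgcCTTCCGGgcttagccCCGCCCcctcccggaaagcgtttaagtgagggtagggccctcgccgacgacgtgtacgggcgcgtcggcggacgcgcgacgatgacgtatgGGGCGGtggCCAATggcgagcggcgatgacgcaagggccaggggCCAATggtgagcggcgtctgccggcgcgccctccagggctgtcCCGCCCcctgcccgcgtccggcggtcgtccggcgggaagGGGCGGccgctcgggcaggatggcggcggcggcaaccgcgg

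The Slc35e1 and Syce2 promoters held 4 GC boxes each and were 76% and 60% G or C. The Mri1 promoter held 1 GC box, and that of Gm31223 held no match to any of the 6 motifs. In the Mylk3 promoter 2 GATA matches and 1 TCF/LEF match were found, and 1 of the GATA matches overlaps the TCF/LEF match. Of the 32544 promoters of the table, 35.9% held a GC box, 8.91% the ETS core, 11.2% the GATA motif, 16% the TCF/LEF core, 2.97% the HOX/PBX letters and 37.4% a CCAAT box. Of the 359 promoters in the segment, 47.4%, 12.8%, 8.36%, 17.8%, 2.23% and 42.3% did, in the same order. The median G and C content was 56.7% in the segment and 53% in the whole table. A match is a description of the letters and not a binding site.

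Many members were open in every library. So that groups could be compared by presence and rank, only the top 28325 peaks by −log10 p were kept in each of the 8 paired lists, as many as the shortest one held. Of the 846 members, 570 were in at least 1 shortened list and 234 (27.7%) were in all 8, against 20.9% of all regions. The remaining 276 members were in none of the 8 shortened lists, and 10 of them had a peak in the dKO list alone. At gene starts (within 1 kb) lay 215 members (25.4%), inside genes 406 (48.0%) and between genes 225 (26.6%). The segment overlaps 267 protein-coding genes, against 77 in the flank of the same 21 Mb before it (47 to 68 Mb) and 190 in the flank after it (89 to 110 Mb).

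The strongest member was a narrow region of 227 bp between genes (chr8:83756759-83756985), 15.4 kb from Adgre5, which codes for the adhesion receptor CD97. Fold enrichment is the authors' ratio of reads at the summit to the local background; it is not normalised between libraries and serves here to describe each peak. The fold of this member was 40.0 to 48.1 in the 8 libraries and 34.1 in dKO. It ranked 17 to 32 in the 9 lists, so it stood at the top of every list at nearly the same place. No filter for repeats or poorly mappable sequence was applied, and whether this member lies in such sequence was not tested. The next 5 members by mean rank were gene starts. The member at Rab8a, a small GTPase of vesicle transport, had a fold of 13.9 to 20.3 in the 8 libraries, and that at Tom1, an endosomal sorting protein, 12.7 to 17.7. The member at Gatad2a, a subunit of the NuRD chromatin remodelling complex, had a fold of 13.4 to 18.4, and Zfp869 and Slc35e1 completed the 5. These 6 members were taken for their high rank in the 8 libraries. The rules used below ask for absence from the shortened lists of a group, so none of the 6 could be called. At the left border the nearest members were a peak in HOXA9_KO 2 alone inside Psd3 (fold 3.19, just inside) and a region in all 8 deposited lists (fold 4.10 to 6.79, just outside). At the right border they were a region in Bcat_KO 1 and PRMT1_KO 1 (fold 3.33 and 3.53, inside) and a peak in PRMT1_KO 2 alone at Sall1 (fold 3.94, outside).

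Bcat_KO and HOXA9_KO, the contrast used to choose the segment, differed at 9 members. A region was called higher in a group when it was in the strongest 14162 peaks of both of its libraries and outside the strongest 28325 of both libraries of the other. By this rule 5 members (0.591%) were higher in Bcat_KO, where 0.059% of all regions were, and 4 (0.473%) were higher in HOXA9_KO, where 0.0629% of all regions were. The flank before the segment held 2 and 1 such regions among 366, and the flank after it held 0 and 0 among 571. Nothing is read from these shares, because the contrast chose the segment. All 9 members lay away from gene starts, 6 inside genes and 3 between them. Without Bcat_KO 2 the first count was 8, and without either HOXA9_KO library the second was 7, since fewer libraries then had to meet the rule.

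Of the 5 members higher in Bcat_KO, the one inside Arhgap10 (chr8:77451499-77452083), a gene for a GTPase-activating protein, was a peak in all 8 libraries. Bcat_KO gave a fold of 12.4 and 12.3, WT 4.68 and 4.22, HOXA9_KO 4.72 and 4.70, and PRMT1_KO 5.87 and 6.18. Both Bcat_KO libraries stood above the other 6, which lay close together, and the means were 12.3 ± 0.01 in Bcat_KO and 4.71 ± 0.01 in HOXA9_KO (SD, n = 2). The member inside Csgalnact1 (chr8:68556898-68557344), which codes for an enzyme that starts chondroitin sulfate chains, had a fold of 12.2 and 9.08 in Bcat_KO and 4.41 in HOXA9_KO 1. It had no peak in the other 5 libraries. The member 8.85 kb from Cks1brt (chr8:85142516-85143071) had a fold of 14.2 and 13.9 in Bcat_KO, 4.10 in HOXA9_KO 2 and no peak elsewhere. These 2 members were thus strong in Bcat_KO and weak or unlisted in the rest.

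The member 3.27 kb from Heatr3 (chr8:88175222-88175739), a HEAT repeat protein of ribosome production, had a fold of 9.50 and 16.5 in Bcat_KO and no peak in any other list. It was the only one of the 9 listed in a single group. The member 19.3 kb from Rnf150 (chr8:82843776-82843996), a RING finger gene, was 221 bp wide, with a fold of 9.61 and 12.3 in Bcat_KO and 7.86 and 6.16 in PRMT1_KO. WT and HOXA9_KO had no peak there, so Bcat_KO and PRMT1_KO stood together.

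All 4 members higher in HOXA9_KO lay inside genes. At Tbc1d9 (chr8:83244143-83244666), a gene of the TBC family of Rab regulators, HOXA9_KO gave a fold of 10.0 and 12.6, PRMT1_KO 7.88 and 8.65, and WT 4.25 and 4.92, and no peak was listed in Bcat_KO. At Inpp4b (chr8:81854463-81854932), a phosphatase of phosphoinositide signalling, HOXA9_KO gave 9.04 and 10.7, PRMT1_KO 5.38 and 5.35, and WT 2.98 and 5.42, and again no peak was listed in Bcat_KO. At both genes the 2 groups other than Bcat_KO and HOXA9_KO lay between them. At Slc35e1 (chr8:72485592-72486298), of the family of nucleotide sugar transporters, the fold was 8.53 and 8.53 in HOXA9_KO, 6.22 and 7.04 in WT, and 10.9 and 6.85 in PRMT1_KO. Among the paired groups Bcat_KO alone lacked this peak, and the dKO list had none there either. The promoter of the same gene (chr8:72492227-72493200, printed above) had a fold of 17.8 and 17.8 in Bcat_KO and 14.1 to 19.0 in the other 6 paired libraries. At Frem3 (chr8:80663457-80663903), which codes for an extracellular matrix protein, the fold was 9.37 and 10.4 in HOXA9_KO, 4.92 in Bcat_KO 2, and no peak was listed in WT or PRMT1_KO.

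**Figure D1:**
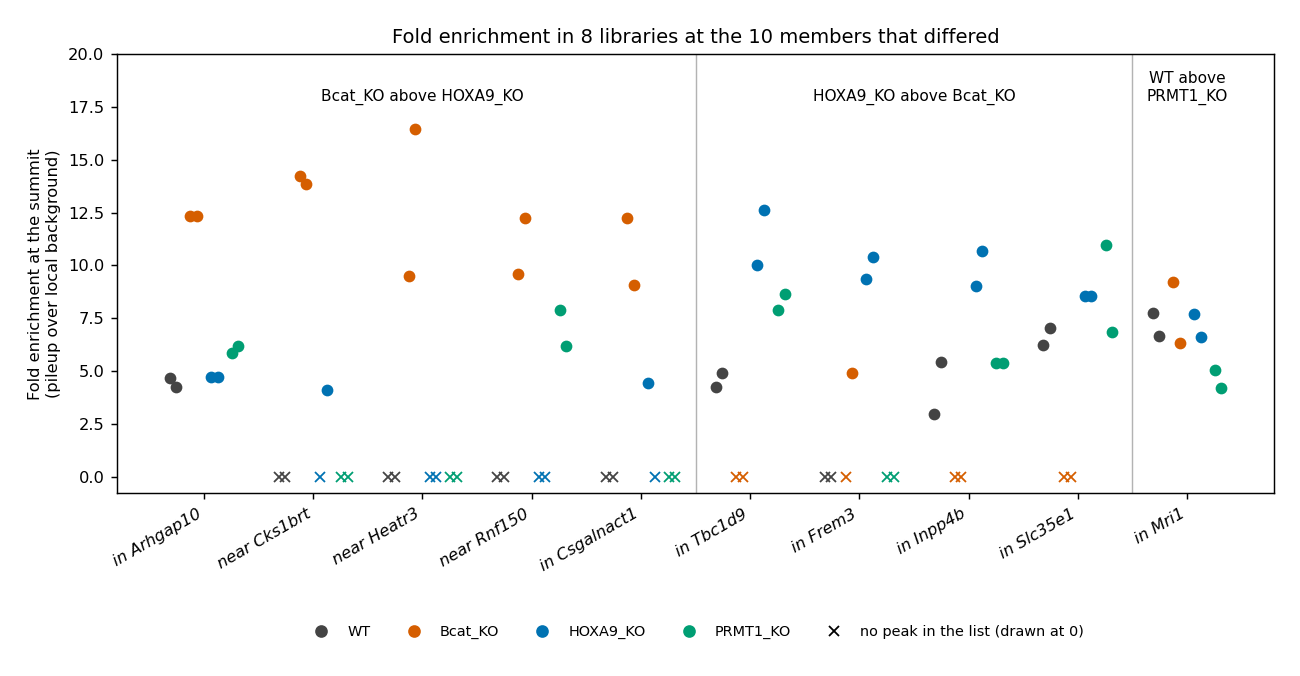
Fold enrichment at the summit (y axis, ratio of reads to local background) in each of the 8 paired libraries at the 10 members that differed (x axis, gene inside or near), with crosses at 0 for libraries without a peak in the deposited list. The Bcat_KO points stand highest at the first 5 members, from 9.08 to 16.5, and the HOXA9_KO points above both Bcat_KO libraries at the next 4, from 8.53 to 12.6.

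Where the WT libraries stood at these members differed from 1 member to the next. Of the 5 members higher in Bcat_KO, 4 were in neither shortened WT list and 1 was in both, and of the 4 higher in HOXA9_KO, 1 was in neither and 1 in both. The single dKO library had a peak at 0 of the 5 and 0 of the 4. With so few members a count of 0 allows a share of up to 60% and 75%, and the 95% Wilson intervals end at 43.4% and 49.0%; both cover counting error only. When the Bcat_KO and HOXA9_KO lists were cut to the 10639 peaks of the dKO list, 3 and 4 of the 5 members remained in the Bcat_KO libraries and 0 and 2 of the 4 in the HOXA9_KO libraries. Those members were called for their high rank in these same libraries. At the same length, 0 of the 5 remained in either WT library or either PRMT1_KO library, as in dKO. Of the 4, 0 remained in either WT library, 1 in PRMT1_KO 1 and 0 in PRMT1_KO 2.

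A wider rule, added after the data were seen, asks only for presence in both shortened lists of 1 group and absence from both of the other. By this rule 28 members (3.31%) were higher in Bcat_KO, where 1.91% of all regions were, and 30 (3.55%) were higher in HOXA9_KO, where 2.03% of all regions were. The shares were 2.19% and 3.28% in the flank before the segment, and 2.28% and 0.525% in the flank after it. The 58 members were spread over the segment, with 10 and 12 in the first 7 Mb, 7 and 9 in the middle 7 Mb, and 11 and 9 in the last 7 Mb. Of the 58, 24 had no peak in either deposited list of the lower group, 14 had a peak in 1 of the 2 lists, and 20 had a peak in both and differed in rank.

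These 58 members were mostly away from promoters. Of the 28, 2 were gene starts, and of the 30, 5, against 25.4% of all members. All members include the 234 in all 8 shortened lists and the 276 in none, which this rule cannot call. Nothing is therefore read from the difference to 25.4%. The 5 gene starts higher in HOXA9_KO were those of Syce2 (synaptonemal complex), Hhip (Hedgehog inhibitor), Zfp827, Zfp423 and Iqcn. At Syce2 the fold was 6.36 and 6.07 in HOXA9_KO and 4.40 and 5.18 in Bcat_KO, with 7.14 and 4.15 in WT and 5.85 and 6.83 in PRMT1_KO, so the groups lay close by fold. At Hhip HOXA9_KO gave 5.40 and 5.46, Bcat_KO 4.08 and 4.38, WT 4.12 and 5.12, and PRMT1_KO 6.73 and 5.12, so WT and PRMT1_KO overlapped with the others. At Gm31223, higher in Bcat_KO, the fold was 7.14 and 5.54 in Bcat_KO, 4.51 and 3.47 in WT and 4.26 in PRMT1_KO 1, with no peak in HOXA9_KO.

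Some genes held several of the 58 members, and 5 genes held at least 2. Csgalnact1 held 4 among its 13 members, 2 in each direction. Besides the member named above, chr8:68627187-68627555 had a fold of 7.77 and 8.94 in Bcat_KO against 4.55 in HOXA9_KO 2 and no peak in HOXA9_KO 1. In the same gene chr8:68361956-68362624 had 9.0 and 6.26 in HOXA9_KO against 3.89 and 3.98 in Bcat_KO, and chr8:68721580-68722012 had 7.06 and 9.08 in HOXA9_KO against 4.47 in Bcat_KO 2. Ednra, the endothelin A receptor, held 2 higher in Bcat_KO among 3 members, and Phkb, a phosphorylase kinase subunit, 2 among 6. Tbc1d9 held 2 higher in HOXA9_KO among 7. Arhgap10 held 1 in each direction among 14. These genes were picked out after their values were seen.

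Against WT and PRMT1_KO the 58 members stood as follows. Of the 28 higher in Bcat_KO, 7 were in both shortened WT lists and 18 in neither, while 6 were in both PRMT1_KO lists and 14 in neither. Of the 30 higher in HOXA9_KO, 10 were in both WT lists and 8 in neither, while 8 were in both PRMT1_KO lists and 15 in neither. For the regions of the whole genome called by the same rule, 30.4% of those higher in Bcat_KO were in both WT lists and 51.9% in both PRMT1_KO lists. For those higher in HOXA9_KO, the shares were 18.0% and 11.8%. In the segment the corresponding shares were 25% and 21.4% for members higher in Bcat_KO, and 33.3% and 26.7% for members higher in HOXA9_KO. The dKO library had a peak at 0 of the 28, which allows up to 10.7% (the 95% Wilson interval ends at 12.1%), and at 2 of the 30.

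The Jaccard index, the number of regions 2 shortened lists share over the number in either, was 0.777 within Bcat_KO and 0.785 within HOXA9_KO in the segment. Between these groups it was 0.674 to 0.692 over the 4 pairs of libraries (mean 0.683). Every pair between the groups thus shared less than either pair within them. This was not particular to the segment. On the other autosomes the index was 0.662 to 0.673 between the groups, and 0.711 and 0.714 within them. The same order held in the flank before the segment and the rest of chromosome 8. In the flank after it the values overlapped, with up to 0.735 between the groups and 0.727 and 0.719 within them. The gap between the mean within groups and the mean between them was 0.0979 in the segment, 0.0821 in the flank before it, 0.0189 in the flank after it and 0.0433 on the other autosomes. In windows of 7 Mb the gap was 0.0948, 0.121 and 0.0877 inside the segment. The 2 windows just before it gave 0.0899 and 0.128, and the 2 just after it 0.0130 and 0, the last with 8 regions in the lists only. The gap was thus wide from 54 Mb, before the left border, up to the right one, and a separate window from 33 to 40 Mb reached 0.111.

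**Figure D2:**
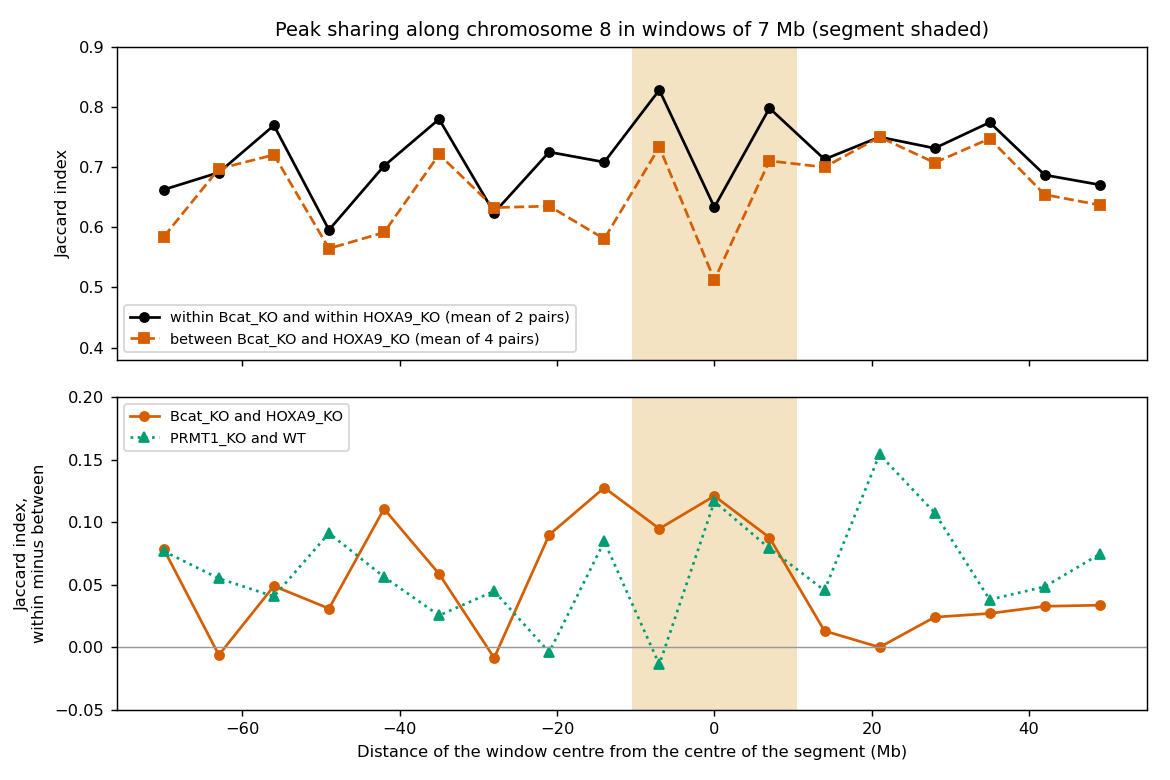
Jaccard index of Bcat_KO and HOXA9_KO libraries within and between groups (upper panel), and within minus between for this pair and for PRMT1_KO and WT (lower panel), in windows of 7 Mb against distance from the centre of the segment in Mb. The gap of Bcat_KO and HOXA9_KO is 0.0948, 0.121 and 0.0877 in the 3 shaded windows and 0.0130 in the next window to the right.

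The autosomes were also divided into stretches of 21 Mb, of which 118 with at least 200 regions were kept. The segment held the highest share of regions that differed between Bcat_KO and HOXA9_KO in either direction, by the stricter rule (1.06%, median of the others 0) and by the wider one (6.86%, median 3.91%). The next highest by the stricter rule was the stretch of chromosome 8 from 47 to 68 Mb, at 0.820%, and by the wider rule one on chromosome 1 reached 6.47%. The contrast of Bcat_KO and HOXA9_KO chose the segment, and the stretches were laid to match its borders. Nothing is therefore read from its place among them for this contrast. For PRMT1_KO and WT, 58 of the other stretches had a higher share than the segment by the stricter rule and 85 by the wider one.

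By the stricter rule 6 members were higher in Bcat_KO than in WT (0.709%), where 0.165% of all regions were, and 1 was higher in WT, where 0.0511% were. For HOXA9_KO and WT the counts were 3 (0.355%), where 0.274% of all regions were, and 0, where 0.0984% were. Of the 6 above WT in Bcat_KO, 4 were among the members above HOXA9_KO, those at Csgalnact1, Rnf150, Cks1brt and Heatr3. Of the other 2, the one near Ier2 was a peak in all 6 mutant libraries. The 1 member higher in WT than in Bcat_KO lay inside Nwd1 (chr8:72665066-72665971), with a fold of 8.29 and 7.24 in WT, no peak in Bcat_KO, 6.80 and 11.7 in HOXA9_KO, and 10.1 and 5.81 in PRMT1_KO.

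Against PRMT1_KO, 3 members were higher in Bcat_KO, where 0.0275% of all regions were, and 0 were lower, where 0.0144% were. In HOXA9_KO 2 were higher, where 0.153% of all regions were, and 1 was lower, where 0.194% were. The 3 were again those at Csgalnact1, Cks1brt and Heatr3, and the 2 lay inside Frem3 and inside Podnl1 (chr8:84126926-84127702). The 1 member lower in HOXA9_KO lay 18.2 kb from Brd7 (chr8:88380430-88381139), a bromodomain subunit of a chromatin remodelling complex. PRMT1_KO gave a fold of 8.58 and 11.9 there, HOXA9_KO 4.83 and 4.28, Bcat_KO 7.35 and 9.65, and WT 6.54 and 8.85. HOXA9_KO was the lowest group, and the other 6 libraries overlapped. These comparisons share libraries with the one that chose the segment.

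For the other pairs of groups, the gap in the segment was larger than on the other autosomes for those with Bcat_KO and smaller for the rest. The gap of WT and Bcat_KO was 0.0767 in the segment and 0.0584 on the other autosomes, and that of WT and HOXA9_KO 0.0627 and 0.0781. Bcat_KO and PRMT1_KO gave 0.0553 and 0.0292, and HOXA9_KO and PRMT1_KO 0.0870 and 0.0903. Over the flank before the segment the gap of WT and Bcat_KO was 0.0607 and that of Bcat_KO and PRMT1_KO -0.0102, and in the flank after it they were 0.0800 and 0.0234. The gap of WT and Bcat_KO was thus wider in the flank after the segment than in the segment. These gaps were not tested.

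**Figure D3:**
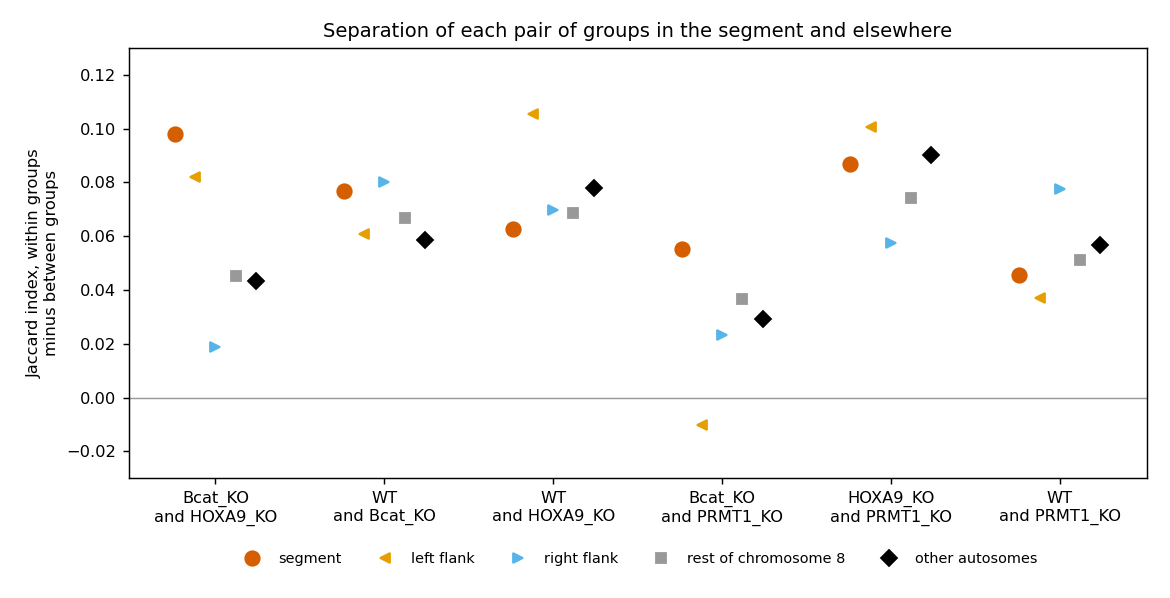
Jaccard index within groups minus between groups (y axis) for each pair of groups (x axis), in the segment, its flanks of 21 Mb, the rest of chromosome 8 and the other autosomes. The segment gives 0.0979 for Bcat_KO and HOXA9_KO, the pair used to choose it, and 0.0455 for WT and PRMT1_KO against 0.0569 on the other autosomes.

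PRMT1_KO and WT share no library with the contrast that chose the segment. By the stricter rule 0 members were higher in PRMT1_KO, where 0.115% of all regions were, and 1 was higher in WT (0.118%), where 0.0433% of all regions were. That member covers the start of Mri1 (chr8:84256162-84257568), an isomerase of the methionine salvage pathway. WT gave a fold of 7.75 and 6.64, PRMT1_KO 5.05 and 4.21, Bcat_KO 9.23 and 6.31, and HOXA9_KO 7.70 and 6.61. The PRMT1_KO libraries were the lowest 2 of the 8 and did not overlap with the rest, with means of 4.63 ± 0.59 against 7.20 ± 0.78 in WT (SD, n = 2). The member was called for its ranks in these same WT and PRMT1_KO libraries, so their difference is only described. With 2 libraries against 2 an exact permutation test cannot give a p below 0.333, and no test was made of single regions. With the lists as deposited the counts were 4 and 0, and the member at Mri1 was no longer called when the strongest 7081 peaks or peaks of −log10 q of at least 5 were asked for. Leaving out 1 library gave 0 to 3 members higher in PRMT1_KO and 1 to 3 higher in WT.

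By the wider rule 18 members (2.13%) were higher in PRMT1_KO, where 2.6% of all regions were, and 17 (2.01%) were higher in WT, where 2.01% of all regions were. Both shares were at or below those of the whole genome. Of the 18, 11 lay inside genes, 7 between genes and 0 at gene starts. Of the 17, 4 were gene starts, those of Mri1, Mylk3 (a cardiac myosin kinase), Misp3 and Gm31223. At Mylk3 the fold was 5.2 and 5.47 in WT, 4.72 and 5.47 in Bcat_KO and 4.91 and 4.12 in PRMT1_KO, with no peak in HOXA9_KO. The Jaccard index between PRMT1_KO and WT was 0.694 and the gap 0.0455, the largest of the 3 ways to pair these 4 libraries (exact permutation test, p = 0.333, the smallest p possible).

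At a few members all 6 single-mutant libraries fell on the other side of the list cut from both WT libraries. By the wider rule 4 members (0.473%) were in the shortened lists of all 6 single-mutant libraries and outside both WT lists, where 0.662% of all regions were, and 4 (0.473%) showed the reverse, where 0.753% of all regions were. Both shares lay below the background, and the WT libraries were the shallowest of the 8. Nothing about the segment is read from these counts, and the members below are described only. Inside Il15 (chr8:82387512-82387957), the gene of a cytokine of lymphoid cells, the fold was 6.93 to 12.2 in the 6 mutant libraries. At 0.743 kb from the immediate early gene Ier2 (chr8:84659783-84660588) it was 3.79 to 5.17, and inside Trmt1 (chr8:84689157-84689719), a tRNA methyltransferase, 4.89 to 6.40. None of these 3 members had a peak in either deposited WT list or in the dKO list. Of the 4 in the other direction, the one inside Nfix (chr8:84799194-84799730) was a peak in all 8 deposited lists, with a fold of 4.48 and 4.17 in WT and 3.78 to 4.48 in the mutants, so it differed in rank and hardly in fold.

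The share of a library's shortened list that fell in the segment was 1.28 ± 0.01% in the 6 single-mutant libraries and 1.30 ± 0.06% in the 2 WT libraries (SD). The difference was -0.0147 percentage points (mutants minus WT). It is given without a test, because 4 of the 6 mutant libraries took part in choosing the segment. With the lists as deposited the difference was -0.100 points, and ranking by fold gave -0.0765 points. The WT lists were also the shortest of the 8, and the part of list length in this was not tested. Without WT 2 the difference of the shortened lists was 0.0259 points, in the other direction. PRMT1_KO, whose libraries the choice did not use, differed from WT by -0.0124 points (exact permutation test, two-sided, p = 1, where the smallest possible is 0.333). In the flanks the 6 mutant libraries differed from WT by 0.0129 points.

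Genes with known roles in blood cells and in cell division had open members throughout. Of 18 blood transcription factors and cofactors, 17 overlapped the segment, and the best-ranked member that overlaps the gene was in all 8 shortened lists for 17 of 17. The best member was picked by its rank in these same lists, and the share for all genes of the segment was not counted. Such counts, here and for the lists below, are therefore not read as a trait of the listed genes. Members that overlap the gene are described here, since for 5 of the 17 the best-ranked member within 5 kb lay outside the gene; this was chosen after the values were seen. For Klf2, a factor of quiescence and migration, WT gave a fold of 11.9 and 11.6, Bcat_KO 12.4 and 12.5, HOXA9_KO 8.88 and 11.6, and PRMT1_KO 10.8 and 11.3. For Klf1, the master factor of red cells, it was 7.31 and 8.39 in WT and 10.2 to 15.3 in the 6 mutant libraries. For Lyl1, a stem cell factor, it was 6.20 to 8.76 in the 8 libraries. The WT values overlapped those of the mutants at Klf2 and Lyl1 and lay below them at Klf1. Of the 97 members within 5 kb of these genes, 2 were higher in Bcat_KO than in HOXA9_KO by the wider rule (1.91% of all regions) and 3 the reverse (2.03% of all regions), near the background, and 0 by the stricter rule. Between PRMT1_KO and WT 1 member was higher in each direction by the wider rule.

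A list of 12 genes covered DNA replication, repair and chromosome upkeep, and held a few genes of other tasks, such as Upf1 of RNA decay and the nuclease gene Dnase2a. All 12 had a best member in all 8 lists. Of the 24 members within 5 kb of them, 0 differed between Bcat_KO and HOXA9_KO or between PRMT1_KO and WT by either rule, where 1.91% to 2.6% of all regions were called in each direction by the wider rule. The fold at Mcm5, a subunit of the replicative helicase, was 13.1 to 20.7 in the 8 libraries. At Asf1b, a histone chaperone of dividing cells, it was 12.2 and 10.7 in WT and 15.1 to 18.1 in the 6 mutant libraries, so the groups did not overlap. At Orc6, of the origin recognition complex, it was 11.4 to 15.1. Fold at a strong summit depends on the reads of a library, and the WT libraries were the shallowest, whose part in these fold values was not tested.

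**Figure D4:**
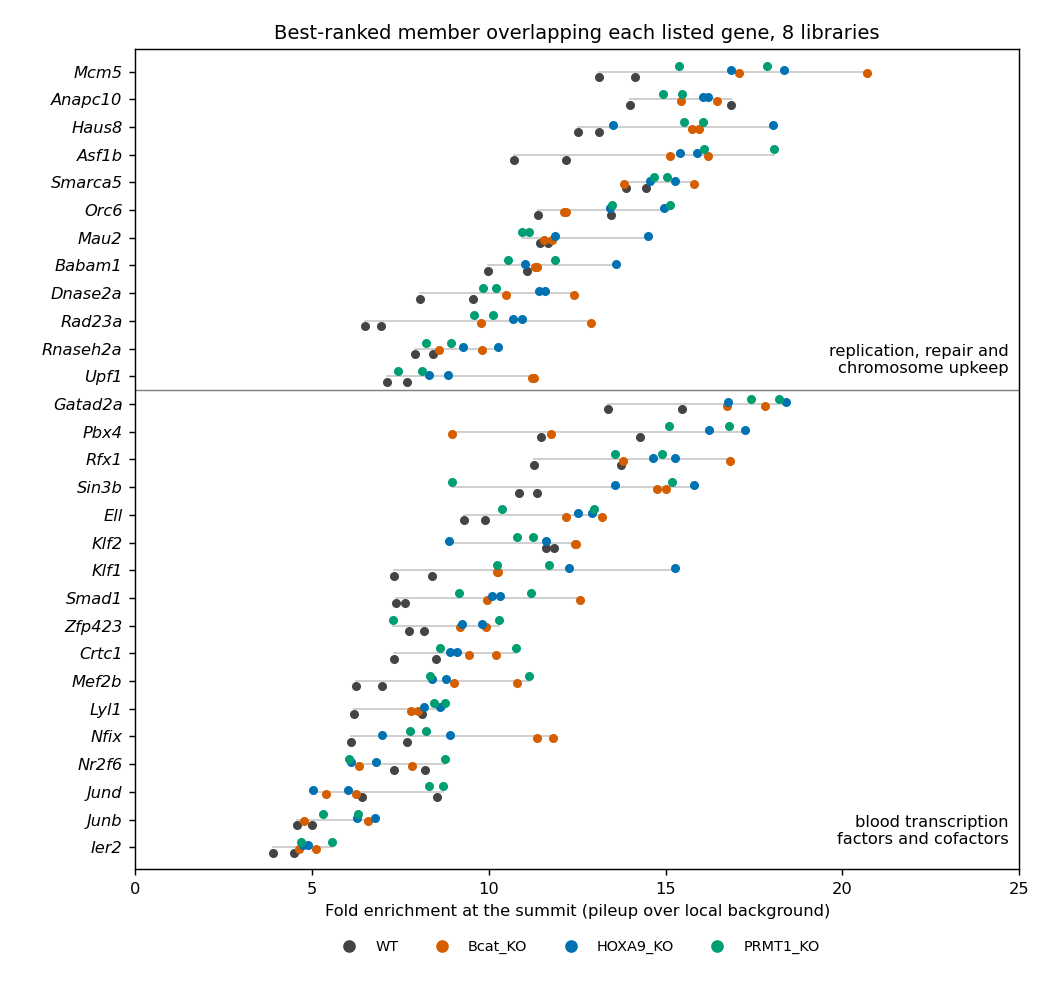
Fold enrichment at the summit (x axis, ratio of reads to local background) of the best-ranked member that overlaps each listed gene (y axis) in the 8 paired libraries, for 17 blood transcription factors and cofactors and 12 genes listed for replication, repair and chromosome upkeep. Each point is 1 library and grey lines join the lowest and highest; the values run from 3.9 at Ier2 to 20.7 at Mcm5.

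Of 16 genes of cytokine, immune and kinase signalling, 13 had a best member in all 8 lists. At Jak3, the kinase of the common gamma chain cytokine receptors, the fold was 5.18 and 4.34 in WT and 5.36 to 9.36 in the 6 mutant libraries. At Il12rb1 the best member was in 1 of the 8 shortened lists, at Il27ra in 4 and at Ifi30 in 0. That at Ifi30 was a deposited peak only in HOXA9_KO 2 (fold 3.83) and PRMT1_KO 2 (fold 4.10). Of the 58 members within 5 kb of these genes, by the wider rule 2 were higher in Bcat_KO than in HOXA9_KO (1.91% of all regions), 1 the reverse (2.03%), 3 higher in PRMT1_KO than in WT (2.6%) and 0 the reverse (2.01%). Of 5 red cell genes 3 had a best member in all 8 lists. All 3 regulators of Wnt signalling did too, with a fold of 5.26 to 7.96 at Nkd1, an inhibitor of the pathway, and 1 of the 12 members within 5 kb of them was higher in Bcat_KO than in HOXA9_KO by the wider rule (1.91% of all regions).

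Of 9 genes of other tissues, 3 had a best member in all 8 lists. The best member at Lpl, lipoprotein lipase, was in 1 of the 8 shortened lists, those at Plvap, an endothelial gene, and Comp, a cartilage gene, in 3, and that at the brain gene Ncan in 0. Unc13a and Cacna1a were among the 3 with a member in all 8. No test compared these lists with each other.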

How the data were processed

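ATAC-seq peak lists of 9 libraries (4 groups of 2, and 1 dKO) were used. Bowtie2 2.4.2, SAMtools 1.14, Picard 2.27.4, MACS2 and the GRCm38/mm10 build are named in the submitters' processing notes. The deposited lists are per library and hold a score, the fold enrichment (a ratio), −log10 p-values, −log10 q-values and a summit offset. Their peak names record that the authors removed duplicates and unmapped reads, and the run naming in the dKO list is different from the rest.

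With pandas 2.3.3, NumPy 2.4.6 and SciPy 1.17.1 in Python 3.11.15, peaks sharing 1 bp were merged, the 8 paired lists were shortened to 28325 peaks by −log10 p, and regions were called by rank in the strongest 14162 or in the whole shortened list (the latter added after the data were seen). Fold and p gave whole summit reads within 0.01 in −log10 p for 100% of peaks; depth is the 1% quantile of the recovered background over the shortest peak. Library values were compared by exact permutation tests with Benjamini-Hochberg adjustment. Named members are the differing ones, the 6 best ranked, those at the borders, and the best-ranked one at listed genes (here the one that overlaps the gene). Members and gene lists were chosen with earlier results of these data known. Gene names, starts and promoter sequences come from RefSeq (GRCm38.p6). No filter for repeats or poorly mappable sequence was applied, and sequence of the differing members themselves is not used here. A few named members are not reported here. Alternatives were the lists as deposited, ranking by fold, a stricter rank, a stricter q-value, 100 bp of overlap, narrower borders, wider regions, a replicate block and leaving out each library.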

Additional observations from a re-analysis of the deposited data

Results flagged for a closer look

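At the member inside Arhgap10 (chr8:77451499-77452083) the mutants lay on opposite sides of WT by rank: the mean fold was 12.3 in Bcat_KO, where both libraries ranked above both WT libraries, while both HOXA9_KO libraries ranked below WT. The ranks were 5207 and 6279 in Bcat_KO, 25793 and 24999 in WT, and 30453 and 31753 in HOXA9_KO. By fold the HOXA9_KO values of 4.72 and 4.70 were not below the WT values of 4.68 and 4.22, and ranks come from lists of unequal length. The difference between the mutants was not tested, because this contrast chose the segment.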

How the results depend on the processing

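Counts of members that differed moved most with the rank a region had to reach. Asking for the strongest 7081 peaks of the list left 1 member higher in Bcat_KO, 0 higher in HOXA9_KO and 0 higher in WT than PRMT1_KO. With peaks of −log10 q of at least 5 alone these counts were 2, 0 and 0, and the Jaccard index rose to 0.714 between Bcat_KO and HOXA9_KO and to 0.753 between PRMT1_KO and WT. The wider rule gave 28, 30, 18 and 17, as in the report. With the lists as deposited, 4 members were higher in PRMT1_KO and 0 in WT, the Jaccard index was 0.622 and 0.614, and the share of peaks in the segment differed by -0.100 points, mutants minus WT. Ranking by fold gave 1 and 2 members for PRMT1_KO and WT, a Jaccard index of 0.669 between Bcat_KO and HOXA9_KO, and a share difference of -0.0765 points. Borders at 70 and 87 Mb left 3 members higher in Bcat_KO. Overlap of 100 bp and regions of at least 300 bp kept every count within 1.5 times its value. The dKO library had a peak at 0 of the strictly called members in every setting run. The causes of these shifts were not tested.

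Leaving out 1 library in turn relaxes the call, since fewer libraries must meet it. The count was 5 to 8 for members higher in Bcat_KO (8 without Bcat_KO 2), 4 to 7 for HOXA9_KO (7 without either HOXA9_KO library), 0 to 3 for PRMT1_KO over WT (1 without PRMT1_KO 2, 2 without PRMT1_KO 1, 3 without WT 1) and 1 to 3 for WT over PRMT1_KO (3 without PRMT1_KO 2). The Jaccard index ran from 0.674 to 0.691 for Bcat_KO and HOXA9_KO and from 0.675 to 0.714 for PRMT1_KO and WT. The share difference ran from -0.0553 to 0.0259 points for all mutants and from -0.0530 to 0.0282 for PRMT1_KO, positive without WT 2. It was also positive with peaks of −log10 q of at least 5, at 0.0109 and 0.0101 points. Same-numbered libraries did not deviate together (correlations 0.0049 to 0.0413), so the numbers do not pair them. With the replicate block the share difference was again -0.0147 points, and that of PRMT1_KO, -0.0124, had an exact permutation p of 1. The 2 libraries of a group and a depth as low as 2.41 reads per kb in dKO limit what a missing peak can show.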
